A study of Mus musculus with 2 samples.

Results

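The cytosolic ribosomal protein genes of the mouse were taken from the GENCODE M21 annotation as the protein-coding genes whose symbols start with Rpl or Rps and a number, with at most a short suffix, together with Rplp0, Rplp1, Rplp2 and Rpsa. The rule uses names and no measured value, and it found 83 of 21938 protein-coding genes. Of these members, 51 code for proteins of the large (60S) subunit, with the 3 stalk proteins counted among them, and 32 for proteins of the small (40S) subunit. They lie on 19 chromosomes. Chromosome 7 holds 14 of them and chromosome 17 holds 8. For each member the data are the strongest open-chromatin peak within 1000 bases of a start site of a protein-coding transcript, called the best peak here, and the footprints in it.

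The assay was DNase-seq, in which DNase I cuts accessible DNA in nuclei and the cut ends are sequenced. The tissue was whole spleen of male B6CASTF1/J mice aged 14 days, an F1 cross that carries 1 C57BL/6J and 1 CAST/EiJ set of chromosomes. There was 1 group with no treatment and no control group, and it had 2 libraries. Replicate 1 was made from 3 males and replicate 2 from 1 male, and the labels give both the same donor entry. No difference can be tested in such a design. Every comparison below is a description of these 2 libraries, and a difference between them may be technical.

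A ribosome joins a small subunit, which reads the mRNA, to a large subunit, which joins amino acids and carries the exit tunnel for the new chain. Its proteins are needed in near equal amounts, and their genes are scattered over the genome and active in nearly all cells. Demand is high in dividing lymphoid cells and in the red cell precursors that the spleen of a young mouse holds. Reduced dose of a ribosomal protein such as Rps19 is known to impair red cell formation. Promoters of these genes are known for short, GC-rich sequence and for a transcript that starts at a C followed by a run of pyrimidines. That run, the 5′ terminal oligopyrimidine tract, lets the mTOR pathway control translation of these mRNAs through Larp1. Besides the functional genes, the genome holds many processed pseudogenes copied from their mRNAs.

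The strict peak list, the one with fewer bases of the 2 deposited for each library, held 48286 peaks over 9.46 Mb in replicate 1 and 28837 over 5.72 Mb in replicate 2. The libraries had 191945 and 125693 footprints. The tissue label was set against marker genes. A peak in both libraries was present at 4 of 5 B cell markers and 5 of 6 erythroid markers, at 1 of 4 T cell markers, 1 of 3 macrophage markers and 1 of 3 stromal markers, and at 0 of 3 hepatocyte and 0 of 3 acinar markers. Over all protein-coding genes the share was 50.2%. Of the macrophage markers, Spi1 had the peak, and Csf1r and Adgre1 had none in either library. Some markers had a peak in replicate 1 alone. These were hepatocyte Apob (signal 0.462), acinar Cela1 (1.54) and Cpa1 (0.730), B cell Ms4a1 (2.12), erythroid Alas2 (0.839) and T cell Lck (1.53). T cell Cd3g had a peak in replicate 2 alone (1.04). Tlx1 and Nkx2-5, which define spleen stroma, had no peak in either library. Of 3 skeletal muscle markers Mylpf had a peak in both, with a signal of 10.4 in replicate 1 and 4.64 in replicate 2. In bulk tissue, fewer cells with an open site and a less open site in each cell cannot be told apart.

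A strict peak lay at 80 of the 83 members in both libraries (96.4%), while 50.2% of all protein-coding genes (11019 of 21938) had one. For comparison, 78 of 78 genes of the mitochondrial ribosome and 37 of 40 proteasome subunit genes had a peak in both libraries. The 3 members without one were Rpl3l, Rpl10l and Rpl39l. Rpl3l is a muscle paralog of Rpl3, and Rpl10l and Rpl39l are known as testis paralogs of the X-linked genes Rpl10 and Rpl39. None of the 3 had a base at a deposited false discovery rate of 0.001 or below within 1000 bases of its start. This held in both libraries. At a looser cut it did not hold for Rpl39l, whose lowest rate was 0.0181 in replicate 2. The rates come from the same libraries as the peak lists, so they are no separate evidence of absence. The partners of the 3 genes were open. Rpl3 had a signal of 23.0 in replicate 1 and 12.6 in replicate 2, Rpl10 had 8.07 and 3.16, and Rpl39 had 6.02 and 3.05.

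Peak signal is the height the authors deposited for each peak, on a scale that the sources used here do not give. The 80 peaked members had a median signal of 12.5 in replicate 1, with a range from 3.16 to 30.8, and of 6.72 in replicate 2, with a range from 1.63 to 19.04. Other protein-coding genes with a peak had medians of 7.08 and 4.81. The members' medians were 1.77 and 1.40 times these values. Genes of the mitochondrial ribosome lay lower than the members, with medians of 8.32 and 5.11. Proteasome subunit genes had 10.6 and 6.53, near the members in replicate 2. The members differed from other genes more in the middle and lower part of the range than above the 99th percentile. Of the 80, 67 lay above the median peaked gene in replicate 1 and 61 in replicate 2. Above the 90th percentile lay 15 and 17, but 1 in each library lay above the 99th percentile. The members thus had few very weak promoters: their lower quartiles were 8.31 and 5.17, against 2.91 and 2.501 for other genes.

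**Figure D1:**
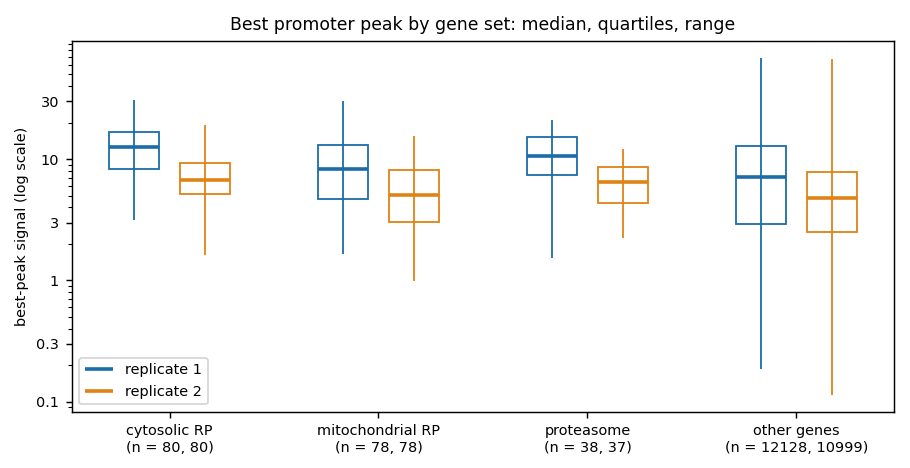
Best-peak signal on a log axis by gene set and library, with the median as a thick line, the quartiles as a box and the range as a thin line. The lower quartile of the cytosolic ribosomal protein (RP) genes in replicate 1, 8.31, lies above the median of other genes, 7.08, and the range of other genes reaches far lower.

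The highest mean signal belonged to Rplp0, the protein that anchors the stalk on which elongation factors land. Its best peak (chr5:115559281-115559500 in both libraries) had a signal of 30.8 in replicate 1 and 16.7 in replicate 2, a mean of 23.7 ± 9.98 (SD, n = 2). These values ranked 94 of 12208 and 142 of 11079 peaked protein-coding genes. The other 2 stalk genes lay much lower. Rplp1 had 14.1 and 7.40, and Rplp2 had 10.9 and 5.91.

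Among genes of the large subunit Rpl7a came next, with 25.2 and 19.04. It was the highest member in replicate 2, at rank 68. Its peak (chr2:26910621-26910800) also lies within the window of Med22, a Mediator subunit gene, so the signal cannot be given to Rpl7a alone. Rpl9 had 22.9 and 14.5 and shares its peak with the window of Lias. Rpl3, whose protein reaches towards the peptidyl transferase centre, had 23.0 and 12.6. Rpl27a (21.4 and 13.6), Rpl37 (21.9 and 12.2) and Rpl22l1 (20.6 and 13.1) were the other large-subunit genes among the 10 highest means. The median of the large-subunit genes was 10.7 in replicate 1 and 6.27 in replicate 2. Rpl5 (12.4 and 8.74) and Rpl11 (7.57 and 4.15) code for the pair that carries 5S rRNA and can bind Mdm2 to stabilise p53. They lay on either side of the median.

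In the small subunit the medians were 12.96 and 7.60. Rps12 led, with 25.1 and 15.2. Rps3a1 had 23.3 and 15.6. Rps28, near the mRNA exit channel, had 23.2 and 12.3, and its peak also lies in the window of Ndufa7. Rps6, the substrate of S6 kinase, had 12.7 and 6.55, close to the middle of its subunit. Rps19, named above for red cell formation, had 17.7 and 9.06. Its best peak lay upstream of the reference start, at -390 to -211. Of the 10 highest members in each library, 9 were the same genes.

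The lowest signal belonged to Rpl6, with 3.16 and 1.63. Rps4x (3.54 and 2.10), Rpl23a (4.26 and 2.21) and Rpl4 (4.20 and 3.12) were also among the lowest. The best peak of Rpl4 also lay in the window of Zwilch. In all, 11 members lay below the median peaked gene in both libraries and 12 above the 90th percentile of peaked genes in both. The share of all genes that did so in both libraries was not computed, so these 2 counts only describe the members. The family thus ran from weak to strong peaks, although its proteins are built into the same particle.

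**Figure D2:**
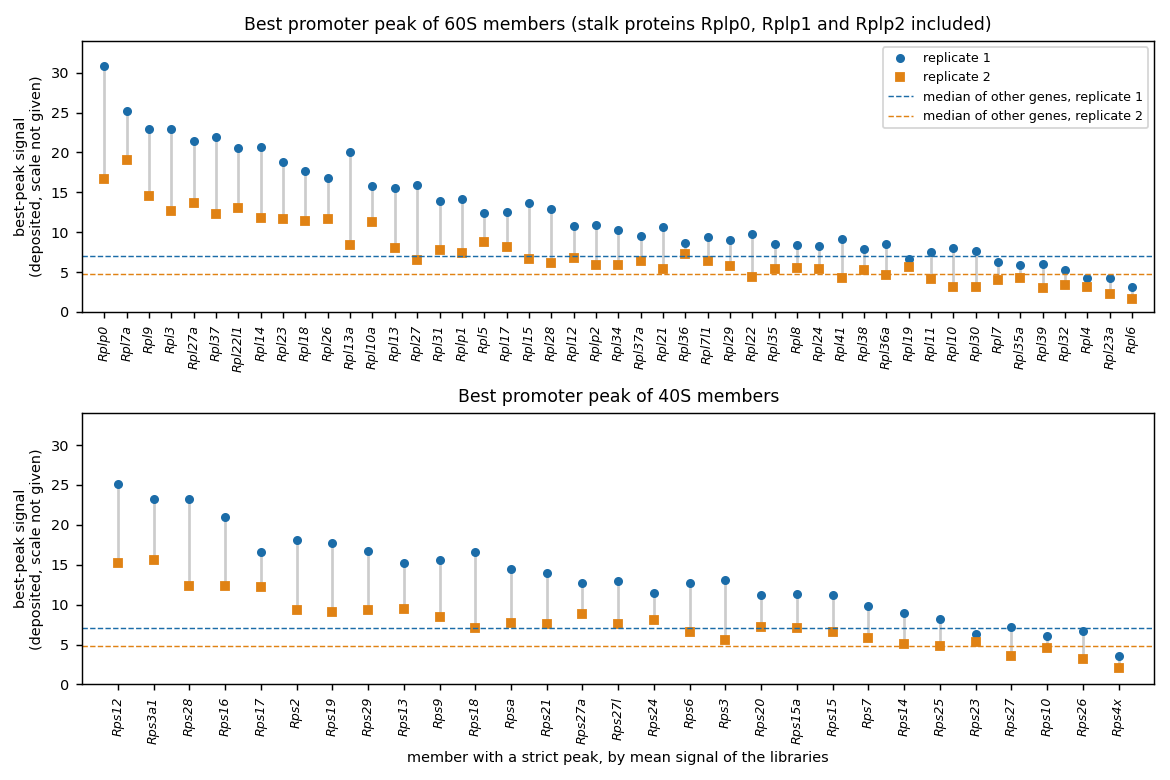
Best-peak signal of 76 of the 80 members with a strict peak, ordered by mean within each subunit. Circles are replicate 1 and squares replicate 2, grey lines join the libraries, and dashed lines mark the medians of other peaked protein-coding genes (7.08 and 4.81). Rplp0 is highest in the large subunit and Rps12 in the small, and replicate 1 is above replicate 2 at every member shown.

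The order of the members was much alike in the 2 libraries. Spearman's rho was 0.940 and Pearson's r of log2 signal 0.939 over the 80 genes, which share their libraries and are not independent replicates. All 80 were higher in replicate 1, as were 97.6% of all genes with a peak in both, so the direction is that of the libraries. On the log2 scale, the median ratio of replicate 1 to replicate 2 at the members, less that at all genes, was 0.07. The highest ratio was at Rpl10 (1.35), and Rpl27 (1.28, from 15.9 and 6.54) was among the 3 highest. They were lowest at Rpl19 (0.24, from 6.66 and 5.64), Rps23 (0.24, from 6.33 and 5.34) and Rpl36 (0.26, from 8.69 and 7.26). Such ratios take both libraries to be on 1 scale, which is not stated in the sources used here.

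The best peaks of the 2 libraries overlapped at 79 of 80 members, and at 96.5% of all genes with a peak in both. Rps26, whose protein contacts mRNA upstream of the start codon, was the exception. It had 1 strict peak upstream at -213 to -14 and 1 downstream near +188 to +347, counted from the reference start as +1. The upstream peak was the stronger in replicate 1 (6.72 against 4.43), and the downstream peak was the stronger in replicate 2 (3.14 against 1.77). Both sites were thus called in both libraries, and their order was exchanged. At Rps23 the peaks were cut differently: the best peak ran from -177 to +263 in replicate 1 and from +64 to +263 in replicate 2.

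The 4 X-linked members, Rpl10, Rpl36a, Rpl39 and Rps4x, are present as 1 copy in males. Rpl36a had signals of 8.46 and 4.66. The 4 genes had medians of 7.04 and 3.10, against 12.7 and 7.06 at the 76 peaked autosomal members. By best peak all 4 lay below the autosomal median in both libraries, but autosomal members such as Rpl6 lay lower still. Rpl10 and Rpl39 had more than 1 strict peak in the window. With these summed, Rpl10 had 12.4 and 4.77, and Rpl39 had 10.6 and 5.60. No autosomal median of summed signal was computed. Whether copy number plays a part was not tested.

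**Figure D3:**
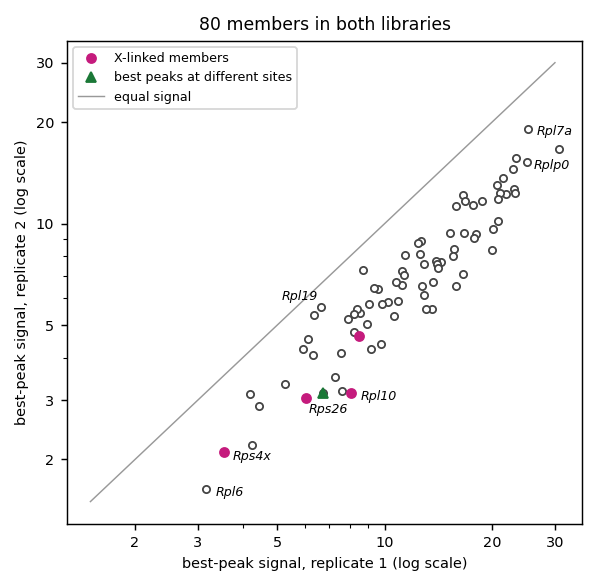
Best-peak signal of the 80 members in replicate 1 against replicate 2 on log axes, with the line of equal signal. Every point lies below the line. The 4 X-linked members and Rps26, whose best peaks lie at different sites, are coloured, and all 5 are in the lower part of the range.

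Several members have a paralog that can replace them in the ribosome or is made in other tissues, and the paralog had the stronger best peak in 4 pairs. Rpl22 had 9.74 and 4.40, while Rpl22l1, a paralog known to rise when Rpl22 is lost, had 20.6 and 13.1. Rps27 had 7.25 and 3.51 against 12.9 and 7.61 at Rps27l, a p53-inducible paralog. Rpl7 had 6.29 and 4.07 against 9.34 and 6.45 at Rpl7l1. X-linked Rpl36a had less signal than Rpl36al, its autosomal copy outside the symbol rule, with 21.7 and 13.9. In these 4 pairs the order of the best peaks was the same in both libraries. Summed over all strict peaks in the window, Rpl7 was the higher of its pair in replicate 1 (20.1 against 16.3) and the lower in replicate 2 (9.78 against 10.97). In the 3 pairs with a tissue-restricted paralog, above, the founding gene alone had a strict peak. An entry named Rps4l was not analysed here.

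Best peaks of the members had a median width of 200 bases in both libraries, against 220 and 210 at other genes. Bases at a false discovery rate of 0.001 or below within 1000 bases of the reference start had a median of 834.5 in replicate 1 and 628.5 in replicate 2 over the 80 peaked members. Other genes with a peak in both had 800 and 575, mitochondrial ribosome genes 706.5 and 509.5. Members spread less: their quartiles in replicate 1 were 650 and 980.25, inside those of other genes, 541 and 1106. Of the peaked members, Rps28, among the highest signals, had the fewest such bases in replicate 1 (448), and Rpl23a, among the lowest, had the fewest in replicate 2 (180). Rpl7, below the median signal, had the most in both (1621 and 1532). Over the 80 members, which share their libraries, Spearman's rho between signal and these bases was -0.069 in replicate 1 and 0.050 in replicate 2.

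The best peak covered an annotated start at 68 of 80 members in replicate 1 and 70 in replicate 2, and the reference start, that of the principal transcript, at 61 and 62. At other genes 72.8% and 74.1% of best peaks covered an annotated start. More than 1 strict peak lay in the window at 26 members in replicate 1 and 23 in replicate 2. At 13 members the best peak also lay in the window of another protein-coding gene, such as Vps52 for Rps18 and Sphk2 for Rpl18. Small nucleolar RNAs, which guide rRNA modification, are often made from introns of these genes, and 30 members hold such a gene. Their median signal was 13.3 and 7.86, against 11.3 and 6.54 at the 50 peaked members without one. The counts of members with more than 1 peak, a shared window or such a gene are given without the share over all genes. They do not show whether members differ from other genes.

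Footprints are short stretches inside open DNA that DNase I cuts less than their surroundings, as where a protein is bound. All 80 peaked members had a footprint in the best peak of both libraries, and so did 99.2% of all protein-coding genes peaked in both. The median was 5 in replicate 1 and 4 in replicate 2, against 4 and 4 at other genes. They covered a median of 38.6% and 33.04% of the peak, against 33.8% and 30%. In 2663 other genes whose signal lay inside the members' quartiles in both libraries, the medians were 5 and 5 footprints. Those footprints covered 39.5% and 35.0% of the peak, so the members' medians did not exceed those of these genes. The 2663 genes are called genes of like signal below, although the 80 members also hold signals outside their own quartiles. Of the members' footprints in replicate 1, 75.9% overlapped one of replicate 2, and 84.4% the other way (73.4% and 82.2% at other genes). Members with many footprints per peak were Rpl13a (7 and 11), Rps18 (10 and 8), Rpl21 (7 and 10), Rpl22 (7 and 9) and Rps12 (8 and 7). Rpl38 had 1 in replicate 1 and 7 in replicate 2.

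Along the promoter, footprints were most frequent in the 100 bases before the start. In the members whose best peak held the reference start, a base at -100 to -1 was in a footprint in 40.2% of members on average in replicate 1 and 35.7% in replicate 2. Other genes had 36.0% and 32.8%. These are all other genes whose best peak held the reference start, and no profile was made for genes of like signal. The highest share among members was 50.8% at -64 in replicate 1 and 46.8% at -12 in replicate 2. These single positions rest on about 30 members each and were not the same in the libraries. Between -38 and -27 the members lay below other genes in both libraries, with 29.5% against 38.7% in replicate 1 and 24.2% against 35.3% in replicate 2 at -33. From +1 to +60 the mean was 30.9% and 27.4%, against 26.5% and 23.7%.

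**Figure D4:**
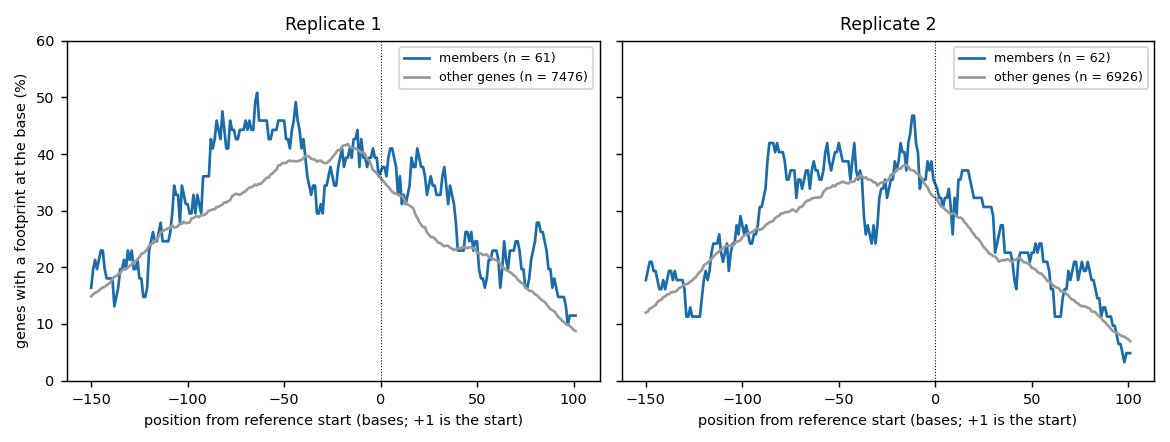
Percent of genes with a footprint at each base from -150 to +100 of the reference start, for members (blue, n = 61 and 62) and other genes (grey, n = 7476 and 6926) whose best peak holds that start. Members lie above other genes over much of the stretch before the start, with means of 40.2% and 35.7% over -100 to -1, but below them between -38 and -27. Their line is rougher, since they are few.

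The next sequences show where footprints sat at strong members. They are the 120 bases before the reference start at the 3 members of highest mean signal that had a footprint over the start base in both libraries, no annotated exon in that stretch and no second gene on the peak. Each is from the mm10 reference, which is that of C57BL/6J, is written along the gene's own strand, and has in capitals the bases inside footprints of both libraries.
Rpl3, chr15:80083407-80083526, minus strand: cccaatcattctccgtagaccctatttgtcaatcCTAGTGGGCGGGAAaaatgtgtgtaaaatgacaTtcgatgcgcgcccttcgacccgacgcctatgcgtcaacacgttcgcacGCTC
Rpl27a, chr7:109519027-109519146, plus strand: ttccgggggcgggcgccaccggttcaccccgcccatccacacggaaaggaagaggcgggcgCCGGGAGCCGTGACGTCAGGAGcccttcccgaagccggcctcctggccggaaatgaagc
Rpl23, chr11:97782438-97782557, minus strand: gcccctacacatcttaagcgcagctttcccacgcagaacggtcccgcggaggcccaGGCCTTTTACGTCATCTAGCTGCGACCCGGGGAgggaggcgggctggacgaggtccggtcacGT
Footprints of both libraries covered 19 of 120 bases at Rpl3, 22 at Rpl27a and 35 at Rpl23. At Rpl27a the covered stretch held the cyclic AMP response element TGACGTCA at -49 to -42. At Rpl3 it held the GC box GGGCGG at -81. Rpl23 had signals of 18.8 and 11.7. Alleles of the CAST/EiJ chromosomes were not analysed here.

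Footprints widened by 5 bases were searched on both strands for 11 short motifs known from promoters. A match describes letters, and the factor that may have bound was not measured. The ETS motif CCGGAA, bound by Gabpa and its relatives, lay in footprints of both libraries at 22 of 80 members (27.5%), against 14.4% of all genes with a peak in both. Among the 2663 genes of like signal the share was 18.8%. In the 250 bases from -150 to +100, 54.2% of members and 17.3% of all protein-coding genes held these letters, so many copies in members lay outside footprints. At 21 members the same copy was covered in both libraries, and at 12 a copy read along the gene's strand. Of 25 such copies, 7 lay at -100 to -1 and 7 at +1 to +60. To show how the copies sit, 4 members of high signal with a covered copy are given with the motif in capitals. The letters TTCCGG mark a copy on the other strand.
Rps3a1, chr3:86142663-86142686, minus strand: ttcttaaagCCGGAAgggcgaaag
Rpl37, chr15:5116374-5116397, plus strand: gccccgggaCCGGAAaccagacgg
Rps16, chr7:28350745-28350768, plus strand: gcttcccttTTCCGGtcgcggcgc
Rpl14, chr9:120571372-120571395, plus strand: catagagagCCGGAAccgccatgt
First bases of the copies lie at +26 in Rps3a1, -262 in Rpl37, +103 in Rps16 and -63 in Rpl14. Rpl37 has a second covered copy at -55. Rps16 had signals of 21.0 and 12.3, and Rpl14 had 20.7 and 11.8.

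The palindrome bound by BANP, which reads it where its CG pairs are unmethylated, and by ZBTB33, which can bind methylated CG pairs, was searched as TCTCGCGAG. It was in footprints of both libraries at 7 members (8.75%), against 1.43% of all genes with a peak in both and 2.48% of genes of like signal. Rpl10a, Rpl12, Rpl17, Rpl26, Rps28 and Rps6 were among them. From -150 to +100 the letters occurred at 10.8% of members and 0.793% of all protein-coding genes. A total of 5 of the sites are shown with 8 bases on either side and the palindrome in capitals, since the element is rare and its letters are the same in each.
Rpl10a, chr17:28328526-28328551, plus strand: cgggcaacTCTCGCGAGAacgcgggc
Rpl12, chr2:32961650-32961675, plus strand: ccagcggtTCTCGCGAGAgctgagct
Rpl26, chr11:68901532-68901557, plus strand: tccgagacTCTCGCGAGAtctcgcgg
Rps28, chr17:33824546-33824571, minus strand: gcgtgcggTCTCGCGAGAgcgaaagt
Rps6, chr4:86857401-86857426, minus strand: ccggctgtTCTCGCGAGAacttagag
The sites shown began between -43 in Rpl26 and +100 in Rpl12. Outside the palindrome the sequences share little. Rps28 (23.2 and 12.3), Rpl26 (16.8 and 11.7), Rpl10a (15.8 and 11.3), Rps6 and Rpl12 (10.8 and 6.73) cover the upper and the middle range of signal.

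The TATA box, searched as TATAA, is where Tbp sets the start of transcription some bases downstream. It was in footprints of both libraries at 9 members (11.2%), against 2.19% of all genes with a peak in both and 2.59% of genes of like signal. From -150 to +100 the letters occurred at 30.1% of members and 16.8% of all protein-coding genes. At 7 members a covered copy read along the gene, and these are shown with 11 bases on either side.
Rpl10, chrX:74270818-74270844, plus strand: taggccgcctaTATAAggcgtgagcag
Rpl24, chr16:55966354-55966380, plus strand: tccctctgcccTATAAggttctcccat
Rplp0, chr5:115559473-115559499, plus strand: cctggttctccTATAAaaggcacacgc
Rps18, chr17:33955676-33955702, minus strand: ccaggaatctaTATAAgacttatacgt
Rps2, chr17:24720069-24720095, plus strand: tcttggagcacTATAAattgtcccttc
Rps28, chr17:33824510-33824536, minus strand: tcagagccgacTATAAaaggcatcccc
Rps9, chr7:3703998-3704024, plus strand: ggcgacgttacTATAAgacctcggtcc
Most of these copies lie after the reference start: at +17 in Rps9, +18 in Rpl10, Rplp0 and Rps2, +38 in Rps28 and +91 in Rpl24, and at -14 in Rps18. The next annotated start downstream was 28 bases away in Rpl10, 29 in Rps9, 30 in Rps2 and 31 in Rps28, counted from the first T. It was 14 in Rps18, 53 in Rplp0 and 56 in Rpl24. The reference start is therefore not the only start these genes use in the annotation, and positions relative to it carry that limit.

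The YY1 motif AANATGGC was in footprints of both libraries at 6 members (7.50%), namely Rpl13a, Rpl21, Rpl30, Rpl34, Rpl7l1 and Rps28, against 3.64% of all genes with a peak in both and 4.92% of those of like signal. In Rpl7l1 its ATG is the annotated start codon. Over whole genes, a start codon sat inside these letters at 6 of 83 members (7.23%) and at 4.48% of other genes. ETS and YY1 were found together at Rpl30 and Rpl7l1.

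Of the other motifs, the GC box, the CCAAT box and the NRF1 motif were covered at a lower share of members than of all genes. The GC box GGGCGG, read by Sp1, was covered at 37 members (46.2%), against 53.7% of all genes with a peak in both and 63.3% of genes of like signal. The CCAAT box, read by NF-Y, was covered at 8 (10%), against 15.8%. Rplp0 held a pair of them, at -87 and -36. The NRF1 motif GCATGCGC was covered at 4 members (5.00%), against a background of 5.49%. The E-box CACGTG was covered at 4 (5.00%), against 3.74%, or 4.43% of genes of like signal. The cyclic AMP response element was covered at 5 (6.25%), against 3.62%, or 4.02% of genes of like signal. The ZNF143 motif ACTACAAT was covered at 0 of 80, with a background of 0.290%. The GATA motif AGATAA, read by Gata1 in red cell precursors, was covered at 2 members (2.50%), Rpl36a and Rpl7, against 0.408%. In the stretch around the start given above for ETS, the order was the reverse. There the GATA letters occurred at 3 members (3.61%), against 6.97% of all protein-coding genes. Counts this small change much with 1 gene. None of the 11 motifs was in footprints of both libraries at 17 members (21.2%), against 28.2% of all genes with a peak in both. Among the 17 were Rps12 and Rpl9, which had high signals.

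**Figure D5:**
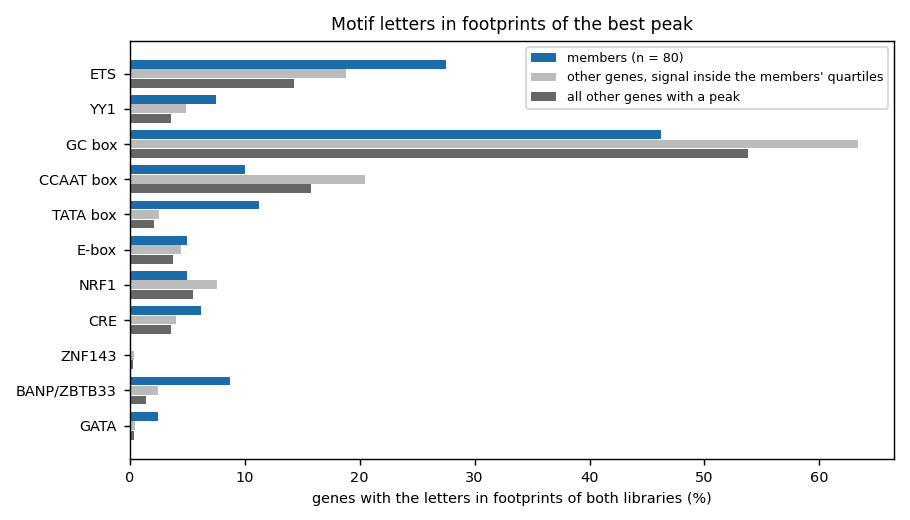
Percent of genes whose best-peak footprints hold each motif in both libraries, for the 80 members, for 2663 other genes with signal inside the members' quartiles, and for all other genes with a peak. The members' bars are longest of the 3 for ETS (27.5%), TATA (11.2%), BANP/ZBTB33 (8.75%), YY1 (7.50%), the cyclic AMP response element (CRE, 6.25%), the E-box and GATA. They are shortest for the GC box (46.2%), the CCAAT box (10%), NRF1 and ZNF143.

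A transcript start at a C followed by at least 4 pyrimidines was annotated as the reference start of 8 members (9.64%), against 2.27% of all protein-coding genes. With any annotated start the count was 22 (26.5%), against 5.06% of other genes. RefSeq starts were matched for 63 members, and 13 of these (20.6%) began this way, against 2.64% of other genes. RefSeq and reference start were the same base at 15 members, and the nearest RefSeq start was a median of 26 bases away, so the share depends on the start chosen. Of the 8 reference starts, 7 are shown from -10 to +15, with the C and its pyrimidine run in capitals.
Rpl32, chr6:115808733-115808757, minus strand: gccgccgcctCTTCCTTCTTCCTCg
Rpl36, chr17:56613406-56613430, plus strand: cggtgccgttCTTCCTgtcccggcc
Rpl37, chr15:5116635-5116659, plus strand: ggggtgctttCTCTTCCggtctctt
Rpl37a, chr1:72711280-72711304, plus strand: gcgtcccttcCTCTTCggacttggg
Rpl4, chr9:64173365-64173389, plus strand: caagtctttcCTTTTCCTgtgggag
Rps21, chr2:180257367-180257391, plus strand: cgaggacccgCCCTCCTgcccaata
Rps24, chr14:24490708-24490732, plus strand: gtgagcggtcCTCTTTTCCTCCTCT
The run was longest in Rps24, where it reached the end of the 15 bases shown, and was 14 in Rpl32, 8 in Rpl4, 7 in Rpl37 and Rps21, and 6 in Rpl36 and Rpl37a. These members were not the most open ones. Rpl37 was high, Rpl4 and Rpl32 (5.25 and 3.35) were among the lowest, and Rps24 had 11.4 and 8.07. The best peaks of Rpl4 and Rpl37 did not cover the starts shown. That of Rpl4 lay at -554 to -355 in replicate 1, also in the window of Zwilch. Rps21 had 14.0 and 7.59, and Rpl37a had 9.58 and 6.40.

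Processed pseudogenes of the members lack promoters of their own as a rule, and few were called open. Of 292 annotated pseudogenes named after 60 members, 3 had a strict peak in both libraries (1.03%), against 1.26% of all 10236 processed pseudogenes. Rpl5-ps2 had signals of 0.948 and 1.15, Rpl34-ps1 had 0.797 and 0.878, and Rpl29-ps2, which lies in the window of Akr1e1, had 1.81 and 1.00. All were below the lowest member in replicate 1, 3.16. The number of pseudogenes named after a member was up to 24, for Rpl31, with a median of 2. It had little relation to the member's signal (Spearman's rho 0.064 in replicate 1 and 0.082 in replicate 2 over 80 genes). Pseudogenes under other names were not counted. How reads that fit several places were treated is not stated in the labels or file headers.

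Genes that work with the members were open as well. Of all protein-coding genes, 50.2% had a peak in both libraries. Other protein-coding genes with a peak had median signals of 7.08 in replicate 1 and 4.81 in replicate 2. All 4 ribosomal proteins or copies outside the symbol rule had a peak in both libraries, among them Fau with 24.4 and 13.4, Rpl36al, and Rack1 with 5.09 and 3.00. So did 17 of 17 other genes listed because their transcripts are known to start with a pyrimidine tract, with a median mean signal of 13.8. Gas5 and Snhg1 on this list are noncoding. By the rule used for the members, a pyrimidine start was found at Eif3f and Pabpc1 and at no other gene of this list. Of the 17, Pabpc1, the poly(A)-binding protein, had 25.6 and 16.5, and Vim was lowest with 3.10 and 2.39. All 8 listed regulators of their translation had a peak, with a median of 10.1. Larp1 had 5.12 and 3.31, Mtor 11.1 and 5.86, and Rps6kb1, the S6 kinase gene, 28.9 and 12.6. The 10 listed genes for factors whose motifs were searched were open too, from Elk1 (3.16 and 1.98) to Nfya (34.3 and 18.8).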

How the data were processed

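DNase-seq reads of 2 spleen libraries were aligned to mm10, per the labels. Neither the aligner nor the callers of peaks and footprints are named in the labels used here. Peak lists as deposited give 1 signal value per peak, the authors' own. False discovery rates (adjusted p-values) were deposited for runs of bases. The deposited footprints carry 1 constant, 0.01, and were not ranked. A read-depth normalized track listed in the file descriptions was not used here, read depth is unknown, and no counting interval is given.

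Start sites of protein-coding transcripts came from GENCODE M21. The reference start was that of the APPRIS principal transcript. The best peak was the strongest strict peak within 1000 bases of a start, taken in each library by itself, with an overlap of at least 1 base. Motifs were matched by letters in footprints widened by 5 bases, and sequences are from mm10 and RefSeq. Named genes were members without a peak, the 10 highest means, the 3 highest and 3 lowest ratios, X-linked members, those with separate best peaks, the 5 with most footprints, and listed paralogs and related genes. Others were named after their values were seen. Some genes are counted but not reported here by name. The members and lists were chosen with earlier results of these data known. Overlap and motif search were tested on simulated data. Python 3.11, pandas 2.3.3, numpy 2.4.6, pysam 0.24.0 and scipy 1.17.1 were used.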

Additional observations from a re-analysis of the deposited data

Results flagged for a closer look

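Rpl39l had no strict peak, but the larger peak list of replicate 2 held a peak at its start, from -41 to +70, with a signal of 0.488. The larger list of replicate 1 held none there.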

How the results depend on the processing

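The count of 80 members with a strict peak in both libraries was compared with the share of all protein-coding genes under each alternative. It was 80 with the larger lists (55.0% of all genes), a 500-base window (49.2%) and an equal number of strongest peaks (48.5%). It was also 80 with the reference start alone (47.7%) and with start sites of every transcript (51.1%, chosen after seeing the data). With the strongest 50% of peaks it was 79 (42.4%). The count with a footprint was 80 under each alternative run, and the log2 ratio between libraries stayed within its tolerance of 0.1. The median signal, the bases under the false discovery rate and the footprint position stayed within the SD of the 2 libraries. That SD is wide, at 4.08 on a median signal of 9.61. For these results, a run without 1 of the 2 libraries cannot fall outside the SD, so such runs decide nothing. Pseudogenes with a peak in both libraries, 3 as reported, were 6 with the larger lists and 1 with the 500-base window. They were 1 with an equal number of peaks, 0 with the strongest 50%, and 3 to 8 with 1 library. These alternative counts are given without the share over all processed pseudogenes. ETS, at 22 members as reported, was at 12 with footprints unwidened (6.90% of other genes), 46 anywhere in the best peak (28.0%) and 57 with the shorter core GGAA (52.5%). YY1, at 6, was at 13 anywhere in the peak (8.91%), 23 with the core ATGGC (13.7%), and 7 to 12 with 1 library. Pyrimidine starts, 8 as reported, were 22 at any start (5.06% of other genes) and 13 at RefSeq starts (2.64%). They were 5 with at least 6 pyrimidines (1.08% of other genes). Anywhere within 30 bases of the start they were 67, where 61.2% of other genes had one too (chosen after seeing the data). All strict peaks in the window were also summed for the 24 members named by rule that had a peak. By this sum 4 of them, Rpl19, Rpl39, Rps23 and Rps26, moved by more than the spread of the libraries. No paired analysis was possible because there was 1 group and no test.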
